A study of Homo sapiens with 9 samples.

Results

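The unfolded protein and amino acid stress response was followed here through 34 genes of its best known output, from chaperones of the endoplasmic reticulum (ER) to targets of the transcription factor ATF4. A gene was measured through the array features, called probe sets, whose annotation gives exactly its 1 symbol. That found 33 of the 34 genes and 52 probe sets, out of 11963 genes and 22215 probe sets on the array that are not controls. SESN2 had no such probe set and was not analysed here. The genes fall into an ER side of 18 genes on 32 probe sets and an ATF4 arm of 15 genes on 20 probe sets. The ER side holds 11 chaperones and folding enzymes, 3 genes of ER-associated degradation, and the transcription factor XBP1 with 3 stress sensors. The ATF4 arm holds 6 regulators, 4 stress effectors and 5 enzymes of amino acid and one-carbon metabolism. Where a gene had several probe sets, the one with the highest mean signal stood for it.

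Expression was measured with Affymetrix arrays in HepG2, an established human hepatoma line that keeps many liver functions. All cells were kept in medium with serum depleted of thyroid hormone and were collected after 24 h with vehicle, 10 nM triiodothyronine (T3) or 10 nM GC-1, on 3 arrays a group. GC-1, or sobetirome, is a synthetic ligand that prefers the beta form of the thyroid hormone receptor and carries methyl and isopropyl groups where T3 carries iodine. Separate cultures are not stated for the 3 samples of a group, and a p-value here therefore rests on a spread that may be technical. The series compares gene regulation by the ligands.

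When unfolded protein builds up in the ER, the sensors ATF6, IRE1 (the product of ERN1) and PERK (the product of EIF2AK3) are activated. ATF6 and the spliced form of XBP1 then raise chaperones and degradation genes, while PERK slows translation and raises ATF4. ATF4 is also made when amino acids run short, and it drives amino acid transport and synthesis together with feedback regulators such as DDIT3 and TRIB3. In hepatocytes, which secrete large amounts of protein, the ER side works without any added stress. A messenger RNA level does not report sensor activation or splicing of XBP1, and in a bulk sample fewer cells of a type and less RNA per cell cannot be told apart.

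The ER side and the ATF4 arm are known for different promoter elements, and the windows below show matches of both. The ER stress response element (ERSE) is CCAAT, then 9 bases of any kind, then CCACG, and its second form (ERSE-II) is ATTGG, 1 base of any kind, then CCACG. The core of the unfolded protein response element is TGACGTGG, and the C/EBP-ATF response element (CARE), through which ATF4 acts with C/EBP proteins, is TGATGNAAN. Each was searched on both strands in RefSeq promoter windows (GRCh38.p14) that run from 250 bases before to 50 bases after a gene's start. RefSeq windows were matched for 31 of the 34 genes, all but PDIA3, SLC7A11 and SHMT2. The 250 bases before the start are printed for 4 genes, 5′ to 3′ on the gene's strand, with every motif match in capitals. HERPUD1 is shown as the gene that rose most clearly, HSPA5 as the standard chaperone target with an ERSE, SDF2L1 as a second gene with an ERSE-II, and CHAC1 because its CARE has the same letters as that of HERPUD1.
HERPUD1 (chr16:56931892-56932141, plus strand): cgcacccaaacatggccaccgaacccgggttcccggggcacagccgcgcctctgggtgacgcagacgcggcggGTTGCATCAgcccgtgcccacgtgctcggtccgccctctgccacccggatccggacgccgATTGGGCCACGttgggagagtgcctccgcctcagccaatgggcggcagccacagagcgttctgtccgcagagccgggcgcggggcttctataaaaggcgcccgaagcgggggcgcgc
HSPA5 (chr9:125241344-125241593, minus strand): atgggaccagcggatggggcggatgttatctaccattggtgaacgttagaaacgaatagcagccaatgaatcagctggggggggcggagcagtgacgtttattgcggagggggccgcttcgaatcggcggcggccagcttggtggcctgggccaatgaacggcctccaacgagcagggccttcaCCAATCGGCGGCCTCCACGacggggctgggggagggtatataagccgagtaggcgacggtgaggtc
SDF2L1 (chr22:21642052-21642301, plus strand): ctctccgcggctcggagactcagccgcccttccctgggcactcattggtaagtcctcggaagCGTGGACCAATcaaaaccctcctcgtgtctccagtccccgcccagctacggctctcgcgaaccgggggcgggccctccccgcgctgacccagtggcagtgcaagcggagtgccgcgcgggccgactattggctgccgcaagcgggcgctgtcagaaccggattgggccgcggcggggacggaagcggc
CHAC1 (chr15:40953221-40953470, plus strand): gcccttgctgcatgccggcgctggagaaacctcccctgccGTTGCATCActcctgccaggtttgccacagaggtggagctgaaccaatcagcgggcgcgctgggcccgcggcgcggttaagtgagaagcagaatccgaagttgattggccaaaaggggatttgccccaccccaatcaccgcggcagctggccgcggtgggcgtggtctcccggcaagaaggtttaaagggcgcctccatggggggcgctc

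The HERPUD1 window held a CARE match, GTTGCATCA read on the opposite strand, 177 to 169 bases before the start and an ERSE-II match 117 to 107 bases before it. The same 9 letters lay 210 to 202 bases before the start of CHAC1. The ERSE of HSPA5 lay 66 to 48 bases before its start, and the ERSE-II of SDF2L1 188 to 178 bases before its start, on the opposite strand. An ERSE was found in 5 of the 17 ER-side windows (HSPA5, HSP90B1, CALR, CANX and XBP1) and in 0 of the 14 windows of the ATF4 arm, against 22 of 27305 windows of all genes (0.0806%). An ERSE-II was found in 3 ER-side windows (SDF2L1, HYOU1 and HERPUD1) and in 15 windows of all genes (0.0549%). The unfolded protein response core was found in HYOU1 alone among the 31, where it overlaps an ERSE-II, and in 0.795% of all windows. A CARE was found in 4 of the 14 ATF4-arm windows (ATF3, CHAC1, FGF21 and ASNS) and in HERPUD1, against 3.67% of all windows. HERPUD1 was the only ER-side gene of the 17 with a CARE match, a count too small to set apart from the 3.67% of all windows. No other window of the 31 held both an ER element and a CARE. The share of all windows that hold both was not computed. A match is a run of letters, and binding of a factor there was not measured.

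HERPUD1, an ER membrane protein that takes part in the degradation of misfolded proteins, rose under both ligands, by 1.34-fold under T3 and 1.32-fold under GC-1. SLC7A11, the light chain of the cystine and glutamate exchanger, fell under T3 by 1.41-fold on its brightest probe set. The other 31 genes did not pass the test under either ligand, and the chaperones in particular differed from vehicle by small amounts with narrow intervals. A probe set was called changed when its adjusted p, from limma with Benjamini-Hochberg adjustment over all 22215 probe sets of the comparison, lay under 0.05. All values are log2 signals as deposited, differences are on that scale, and errors of differences are standard errors from the same model.

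**Figure D1:**
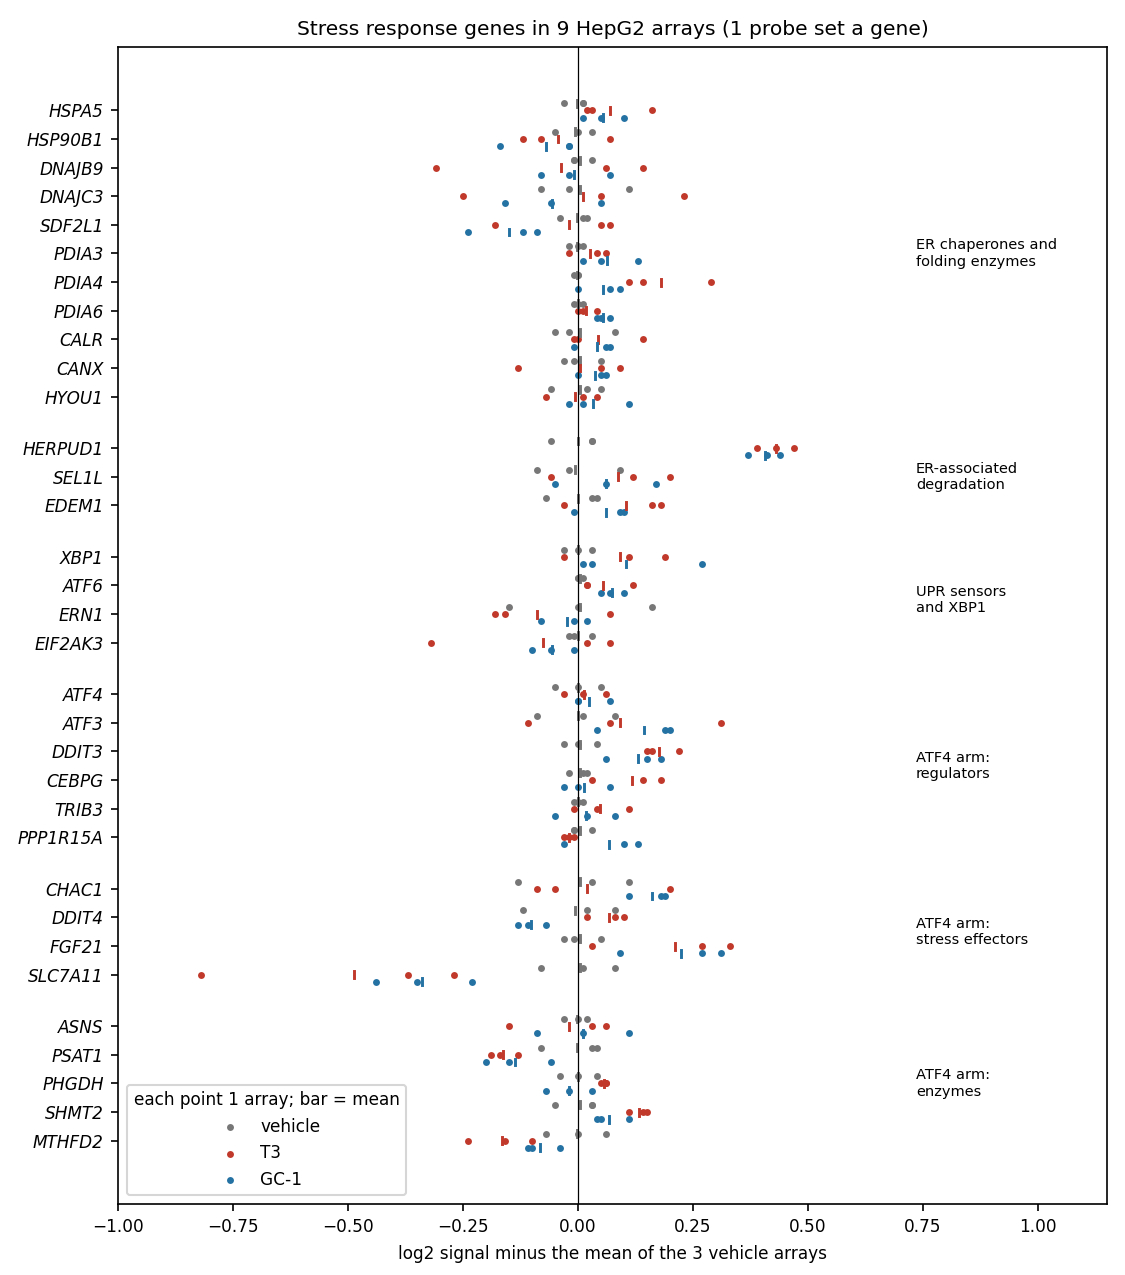
Horizontal axis: log2 signal of each array minus the mean of the 3 vehicle arrays, for the probe set that stands for each of the 33 genes; points are single arrays (grey vehicle, red T3, blue GC-1) and short bars are group means. HERPUD1 has all 6 ligand arrays to the right of its vehicle arrays, with a gap of 0.34. ATF6, DDIT3 and SHMT2 do too, with gaps of 0.01 to 0.02. SLC7A11 has all 6 to the left, and most other genes scatter around 0.

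Of the 52 probe sets, 1 was called higher and 2 lower under T3, beside 4.00% higher and 1.50% lower among all probe sets. Under GC-1 1 was called higher and 0 lower, beside 1.81% and 0.986%. The split over all probe sets was 888 higher and 334 lower under T3, and it turned to 932 and 1152 with each array's interquartile range as a covariate and to 850 and 980 without T3 replicates 1 and 2. Under GC-1 it was 403 and 219, and 706 and 729 with array weights. The mean of both ligands against vehicle called 1 higher and 1 lower, beside 3.63% and 1.90%. Counted by gene, that was 1 higher and 1 lower of 33 under T3 and 1 higher and 0 lower under GC-1. Both lower probe sets under T3 belong to SLC7A11. These shares lie near the background, so the set as a whole did not stand apart by its count. The median difference over the 33 genes was 0.03 under T3 and 0.03 under GC-1, where the medians over all probe sets were -0.01 and 0.00. The 3 arrays of T3 lay all above the 3 of vehicle in 8 genes and all below in 3, and those of GC-1 all above in 7 and all below in 2. Among all probe sets, 24.9% had such separated groups for T3 and 26.5% for GC-1.

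The chaperones and folding enzymes bind, fold and cross-link proteins that enter the ER. HSPA5 (BiP), the main ER chaperone and the usual readout of the unfolded protein response, measured 12.78, 12.82 and 12.82 in vehicle, 12.97, 12.84 and 12.83 in T3, and 12.91, 12.86 and 12.82 in GC-1. The lowest T3 array lay 0.01 above the highest vehicle array, and the GC-1 arrays overlapped vehicle. Its difference was 0.07 ± 0.05 under T3 (95% interval -0.05 to 0.19, adjusted p = 0.488 by limma) and 0.06 ± 0.05 under GC-1 (-0.06 to 0.18, adjusted p = 0.662).

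PDIA4, a disulfide isomerase with several thioredoxin-like domains, had the smallest p of the chaperone group. Its signals were 10.81, 10.81 and 10.80 in vehicle, 10.95, 10.92 and 11.10 in T3, and 10.88, 10.90 and 10.81 in GC-1. The T3 arrays stood above all vehicle arrays, while GC-1 replicate 3 sat at the vehicle level. The difference of 0.18 ± 0.06 under T3 missed the threshold (adjusted p = 0.0941 by limma), and under GC-1 it was 0.06 ± 0.06 (adjusted p = 0.704). A second PDIA4 probe set, 208658_at, gave 0.05 under T3 and 0.02 under GC-1.

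The other 9 genes of the group are HSP90B1 (GRP94), the J-domain partners of HSPA5 DNAJB9 and DNAJC3, SDF2L1, the disulfide isomerases PDIA3 and PDIA6, the lectin chaperones CALR and CANX, and the HSP70-like exchange factor HYOU1. Over all 11 genes the differences ran from -0.04 to 0.18 under T3, with a median of 0.01, and from -0.15 to 0.07 under GC-1, with a median of 0.03. The lowest GC-1 value belonged to SDF2L1, a partner of the J-domain proteins, whose GC-1 arrays (9.22, 9.37 and 9.34) lay below its vehicle arrays (9.42, 9.47 and 9.48). That difference of -0.15 ± 0.07 did not pass (adjusted p = 0.355 by limma). None of the 21 chaperone probe sets was called under T3 or GC-1, while an unadjusted p under 0.05 by limma was reached by 1 under T3 and by 0 under GC-1. Among all probe sets, 21.1% reached it under T3 and 15.9% under GC-1, the background for the like counts below. All 21 of their 95% intervals lay within 1.25-fold of no difference under either ligand, a bound that 80.9% of all probe sets met under T3 and 85.7% under GC-1. HSP90B1 on 2 probe sets, PDIA6 on 4, CALR on 3 and CANX on 3 were each measured repeatedly with 0 calls.

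Leaving out any single array called 0 chaperone probe sets under either ligand, while 3 other settings called some under T3. With all 9 arrays and a spread that follows signal and resists outliers (limma's trended and robust setting), PDIA4 passed (0.18, adjusted p = 0.013). The 2 other settings concern the width of the signal distributions. T3 replicates 1 and 2 had wider signal distributions than the other arrays, with interquartile ranges of 2.992 and 2.973 against 2.832 to 2.881. With that range as a covariate PDIA4 (0.29, adjusted p = 0.0241 by limma) and the CALR probe set 200935_at (0.26, adjusted p = 0.0412) were higher, and DNAJB9 (-0.32, adjusted p = 0.0304) and EIF2AK3 (-0.33, adjusted p = 0.0109) lower. With both of them left out, so that T3 replicate 3 alone stood for T3 and was assumed to vary like the other groups, PDIA4 (0.29, adjusted p = 0.0296) and the dimmer CALR probe set 200935_at (0.26, adjusted p = 0.0445) were higher. In the same fit DNAJB9 was lower (-0.31, adjusted p = 0.0361), as was the sensor gene EIF2AK3 (-0.32, adjusted p = 0.0236). In DNAJB9, DNAJC3, EIF2AK3, SEL1L probe set 202062_s_at and SLC7A11 probe sets 209921_at and 217678_at, T3 replicate 3 was the lowest of the 9 arrays. It was the lowest array in 9 of the 33 genes and the highest in 7, beside 17.6% and 16.5% of all probe sets. Vehicle replicate 3 was the lowest in 8, beside 9.66%, and T3 replicate 1 the highest in 10, beside 14.1%.

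ER-associated degradation returns misfolded proteins to the cytosol for destruction by the proteasome, and it contained the one gene called under both ligands. HERPUD1 (probe set 217168_s_at) measured 10.54, 10.54 and 10.45 in vehicle, 10.94, 10.90 and 10.98 in T3, and 10.95, 10.88 and 10.92 in GC-1. The lowest ligand array stood 0.34 above the highest vehicle array, and the ranges of the T3 and GC-1 arrays overlapped. The mean signal rose from 10.51 ± 0.05 (SD, n = 3) in vehicle to 10.94 ± 0.04 in T3 and 10.92 ± 0.03 in GC-1. The difference was 0.43 ± 0.05 under T3 (95% interval 0.32 to 0.54, adjusted p = 0.000489 by limma) and 0.41 ± 0.05 under GC-1 (0.30 to 0.51, adjusted p = 0.00109). HERPUD1 was the only gene of the set called in each of 18 other ways of fitting or selecting arrays, at 0.40 to 0.47 under T3 and 0.38 to 0.42 under GC-1. SDF2L1 and HYOU1, the 2 other genes with an ERSE-II, gave -0.02 and -0.01 under T3 and -0.15 and 0.03 under GC-1. CHAC1, with the same CARE letters, gave 0.02 under T3 and 0.16 under GC-1. The other CARE genes gave 0.21 and 0.22 (FGF21), 0.09 and 0.14 (ATF3), and -0.01 and 0.02 (ASNS). None of these 6 passed with all arrays in the model, and their differences from HERPUD1 were not tested.

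SEL1L, the adaptor of the HRD1 ubiquitin ligase, and EDEM1, which trims mannose from misfolded glycoproteins, work in the same pathway as HERPUD1. EDEM1 measured 8.89, 8.78 and 8.88 in vehicle, 9.01, 9.03 and 8.82 in T3, and 8.84, 8.95 and 8.94 in GC-1, so that all groups overlapped. Its difference was 0.10 ± 0.07 under T3 (adjusted p = 0.419 by limma) and 0.06 ± 0.07 under GC-1 (adjusted p = 0.744), and the sign under T3 turned when T3 replicates 1 and 2 were left out (-0.03). SEL1L had 4 probe sets, which ran from -0.08 to 0.09 under T3 and from -0.02 to 0.12 under GC-1, with 0 called. Its brightest probe set gave 0.09 ± 0.08 and 0.07 ± 0.08.

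**Figure D2:**
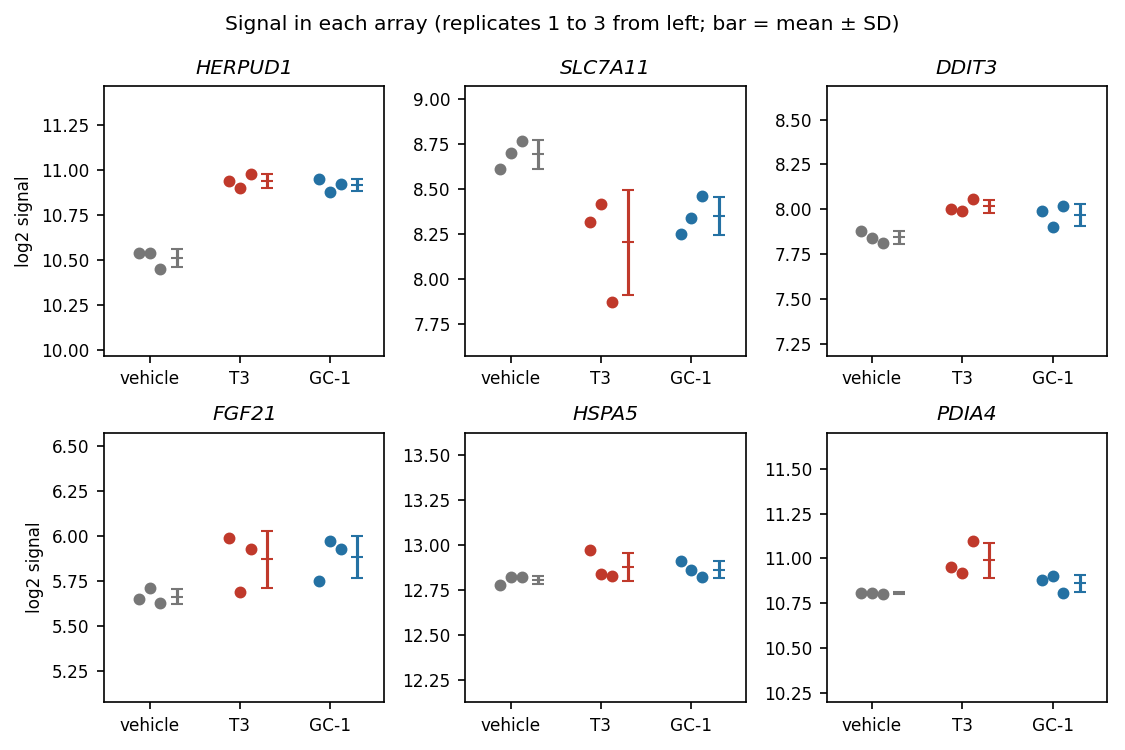
Vertical axis: log2 signal in each of the 3 arrays of vehicle, T3 and GC-1, with the group mean and SD beside the points, for 6 genes on axes of equal span. HERPUD1 moves as a tight block in both ligands, and SLC7A11 is lower with T3 replicate 3 lowest at 7.87. HSPA5 stays close to vehicle, and the T3 arrays of PDIA4 lie at least 0.11 above its vehicle arrays.

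The sensors are present before stress and act through changes in their proteins, and XBP1 acts after splicing of its messenger. XBP1, whose spliced messenger encodes an activator of folding and degradation genes, measured 11.01, 11.04 and 11.07 in vehicle, 11.15, 11.01 and 11.23 in T3, and 11.31, 11.05 and 11.07 in GC-1. One or more arrays of each ligand lay within the vehicle range, and GC-1 replicate 1 was the highest of the 9. The difference was 0.09 ± 0.08 under T3 (adjusted p = 0.566 by limma) and 0.11 ± 0.08 under GC-1 (adjusted p = 0.566). ATF6, the membrane-bound transcription factor, measured 8.56, 8.56 and 8.57 in vehicle, 8.58, 8.58 and 8.68 in T3, and 8.61, 8.63 and 8.66 in GC-1. All of its ligand arrays stood above vehicle, yet the differences of 0.05 ± 0.05 (adjusted p = 0.571) and 0.07 ± 0.05 (adjusted p = 0.509) did not pass. A second ATF6 probe set gave -0.02 and 0.02. ERN1, which encodes the kinase and nuclease IRE1, gave -0.10 ± 0.09 under T3 and -0.03 ± 0.09 under GC-1. EIF2AK3, which encodes the kinase PERK, gave -0.08 ± 0.09 and -0.06 ± 0.09, with T3 replicate 3 at 8.38 and the other 8 arrays at 8.60 or more.

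In the ATF4 arm the regulators come first. ATF4 itself, which is controlled mainly by translation of its messenger, gave 0.02 ± 0.05 under T3 and 0.03 ± 0.05 under GC-1, with both intervals inside -0.10 to 0.14. DDIT3 (CHOP), a C/EBP-family factor tied to prolonged ER stress, measured 7.88, 7.84 and 7.81 in vehicle, 8.00, 7.99 and 8.06 in T3, and 7.99, 7.90 and 8.02 in GC-1. All 6 ligand arrays stood above the vehicle arrays. The difference was 0.17 ± 0.05 under T3 (adjusted p = 0.0793 by limma) and 0.13 ± 0.05 under GC-1 (adjusted p = 0.243), and neither passed. For the mean of the ligands it was 0.15 ± 0.04 (adjusted p = 0.0787), and leaving out the dimmest 25% of all probe sets brought the T3 value past the threshold (adjusted p = 0.0479).

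ATF3, a stress-induced repressor and partner of ATF4, measured 6.83, 6.66 and 6.76 in vehicle, 7.06, 6.82 and 6.64 in T3, and 6.95, 6.79 and 6.94 in GC-1. The T3 arrays spread over a wider range than either other group and enclosed the vehicle values. The difference was 0.09 ± 0.10 under T3 (adjusted p = 0.649 by limma), with the sign turned to -0.02 without T3 replicate 1, and 0.14 ± 0.10 under GC-1 (adjusted p = 0.517). The other regulators are CEBPG, a dimer partner of ATF4, TRIB3, a pseudokinase that restrains ATF4 and CHOP, and PPP1R15A (GADD34), which restores translation. They ran from -0.02 to 0.11 under T3 and from 0.01 to 0.06 under GC-1. Of the 7 regulator probe sets 0 were called, and 1 had an unadjusted p under 0.05 under each ligand.

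The stress effectors held the gene that fell. SLC7A11 imports cystine for glutathione synthesis. On its brightest probe set, 209921_at, it measured 8.61, 8.70 and 8.77 in vehicle, 8.32, 8.42 and 7.87 in T3, and 8.25, 8.34 and 8.46 in GC-1. Each ligand array lay below each vehicle array, and T3 replicate 3 lay 0.38 below every other array. The difference was -0.49 ± 0.12 under T3 (95% interval -0.76 to -0.23, adjusted p = 0.0387 by limma) and -0.34 ± 0.12 under GC-1 (-0.61 to -0.08, adjusted p = 0.185). The probe set 207528_s_at was also called under T3 (-0.28 ± 0.07, adjusted p = 0.0407) and not under GC-1 (-0.18 ± 0.07, adjusted p = 0.248). The third, 217678_at, gave -0.24 ± 0.11 and -0.19 ± 0.11 (adjusted p = 0.244 and 0.445).

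The SLC7A11 calls were close to the threshold. Without T3 replicate 3 the brightest probe set gave -0.33 under T3 (adjusted p = 0.035 by limma) and -0.34 under GC-1 (adjusted p = 0.0191), so that both passed. The T3 call of that probe set ended in 7 of 18 other settings. They were without vehicle replicate 1, 2 or 3 (adjusted p = 0.0779, 0.103 and 0.133 by limma), without T3 replicate 1 (0.0562) or without GC-1 replicate 2 (0.0613). The others were a fit of the T3 and vehicle arrays alone (0.0745) and the replicate number as a block (0.0722), although the numbers were not taken to pair the arrays. Under GC-1 the brightest probe set passed in 4 of the 18. Its sign was negative in all 18 for either ligand, while its size ran from -0.83 to -0.33 under T3 and from -0.40 to -0.21 under GC-1. Without vehicle replicate 2 the probe set 207528_s_at was still called under T3 (-0.34, adjusted p = 0.0308 by limma). Its T3 call also held with the trended and robust spread, with array weights, without dim probe sets and without T3 replicate 2. It ended in every other setting fitted by probe set, among them quantile normalization and leaving out vehicle replicate 1 or 3.

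FGF21, a liver hormone released in fasting and under stress, was read from a probe set of low signal, where array signals understate differences. It measured 5.65, 5.71 and 5.63 in vehicle, 5.99, 5.69 and 5.93 in T3, and 5.75, 5.97 and 5.93 in GC-1. One T3 array, replicate 2, fell within the vehicle range, while all GC-1 arrays stood above it. The difference of 0.21 ± 0.08 under T3 (adjusted p = 0.173 by limma) and 0.22 ± 0.08 under GC-1 (adjusted p = 0.203) did not pass, and without T3 replicate 2 the T3 difference was 0.30 (adjusted p = 0.0441). CHAC1, which degrades glutathione, gave 0.02 ± 0.08 and 0.16 ± 0.08, and DDIT4 (REDD1), an inhibitor of mTORC1, gave 0.07 ± 0.06 and -0.10 ± 0.06, with 0 calls.

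The 5 enzymes supply asparagine, serine, glycine and one-carbon units. PSAT1, the aminotransferase of serine synthesis, measured 10.10, 10.22 and 10.21 in vehicle, 10.05, 9.99 and 10.01 in T3, and 10.12, 9.98 and 10.03 in GC-1. The T3 arrays lay below all vehicle arrays and GC-1 replicate 1 within their range. Its difference was -0.16 ± 0.06 under T3 (adjusted p = 0.126 by limma) and -0.14 ± 0.06 under GC-1 (adjusted p = 0.265). MTHFD2, the mitochondrial folate enzyme, measured 11.46, 11.52 and 11.39 in vehicle, 11.30, 11.36 and 11.22 in T3, and 11.35, 11.36 and 11.42 in GC-1. The T3 arrays were again below vehicle, and the highest GC-1 array overlapped it. Its difference was -0.16 ± 0.06 under T3 (adjusted p = 0.128) and -0.08 ± 0.06 under GC-1 (adjusted p = 0.529).

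The other 3 enzymes did not share these signs throughout. SHMT2, the mitochondrial serine hydroxymethyltransferase, gave 0.13 ± 0.05 under T3 (adjusted p = 0.154 by limma) and 0.06 ± 0.05 under GC-1 on its brightest of 3 probe sets, and the other probe sets gave 0.12 and 0.04 under T3. PHGDH, the first enzyme of serine synthesis, gave 0.06 and -0.02, and ASNS, the asparagine synthetase with a CARE in its window, gave -0.01 and 0.02. None of the 7 enzyme probe sets was called under T3 or GC-1, with an unadjusted p under 0.05 by limma for 3 under T3 and 1 under GC-1, beside the 21.1% and 15.9% of all probe sets. With the trended and robust spread, 3 genes passed under T3: PSAT1 (-0.16, adjusted p = 0.0387), MTHFD2 (-0.16, adjusted p = 0.0188) and SHMT2 (0.13, adjusted p = 0.0482). All 7 intervals lay within 1.25-fold of no difference under either ligand.

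**Figure D3:**
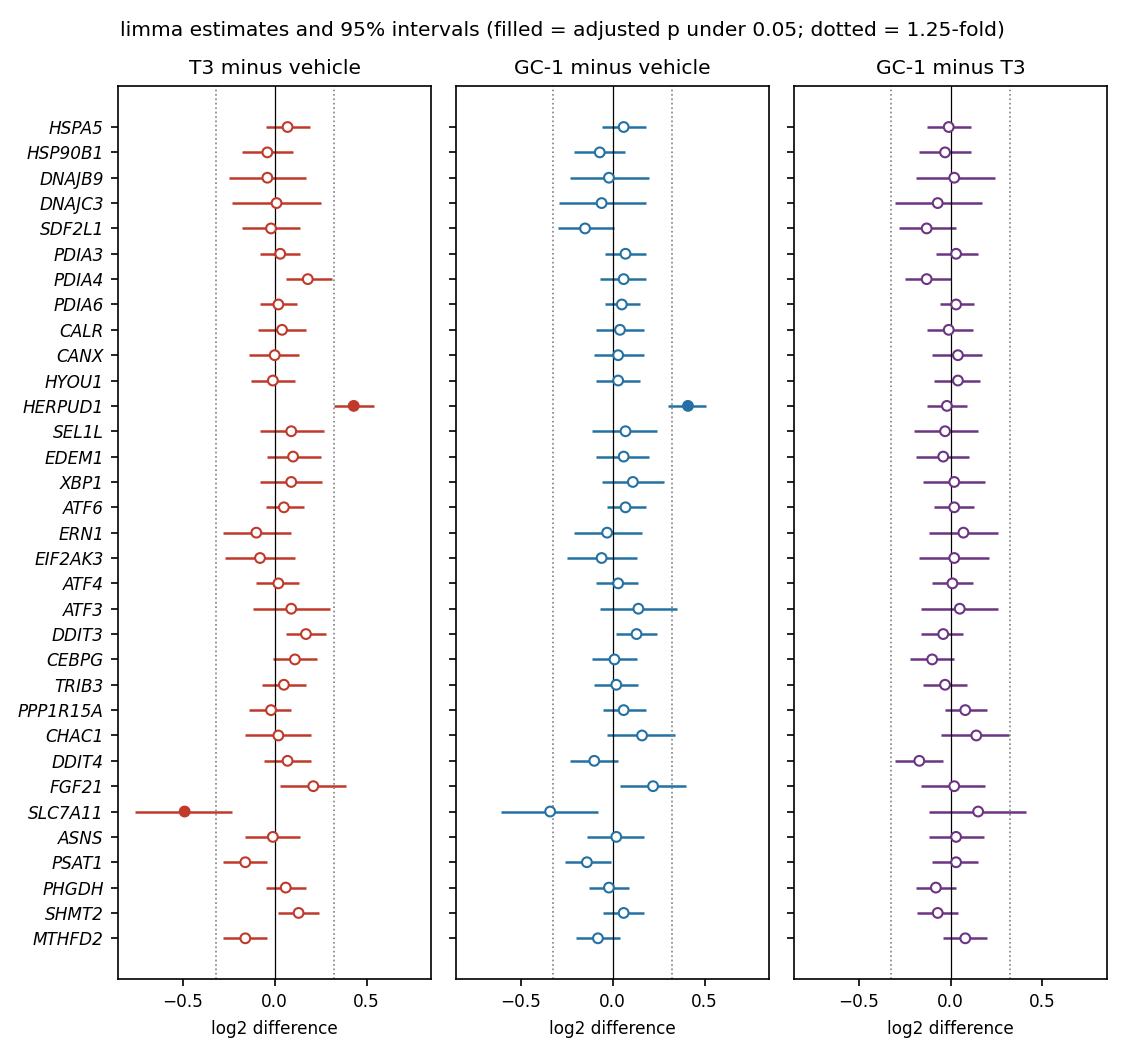
Horizontal axis: log2 difference estimated by limma with its 95% interval for the 33 genes, in the panels T3 minus vehicle, GC-1 minus vehicle and GC-1 minus T3; filled points passed an adjusted p of 0.05 and dotted lines mark 1.25-fold. HERPUD1 is filled in both ligand panels, SLC7A11 in that of T3, and no point is filled in the direct comparison.

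T3 and GC-1 were compared directly at the same dose and time, as 1 pair of compounds. None of the 52 probe sets differed past the threshold, nor did any of the 22215 on the array (0%), where 3122 (14.1%) had an unadjusted p under 0.05 by limma. Without T3 replicate 3, 338 of all probe sets passed (157 higher and 181 lower in GC-1), and 22 did with the trended and robust spread. None of these was among the 52. Over the 33 genes GC-1 minus T3 ran from -0.17 to 0.15, with a median of 0.02. The 95% interval lay within 1.25-fold of no difference in 32 genes and within 1.5-fold in all 33. For HERPUD1 the difference was -0.02 (-0.13 to 0.09), so a gap between the ligands of over 0.13 log2 units lay outside its interval. For SLC7A11 it was 0.15 (-0.12 to 0.41, adjusted p = 0.597), an interval that still holds a difference of 1.25-fold and cannot show that the ligands act alike on this gene.

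Unadjusted p-values under 0.05 were reached in that comparison by 2 of the 33 genes, DDIT4 and PDIA4, which are named here after their values were seen. DDIT4 measured 10.52, 10.46 and 10.32 in vehicle, 10.54, 10.46 and 10.52 in T3, and 10.37, 10.33 and 10.31 in GC-1. The GC-1 arrays lay below the T3 arrays, with the vehicle arrays spread over both. The difference was -0.17 ± 0.06 (adjusted p = 0.261 by limma), and that of PDIA4 was -0.13 ± 0.06 (adjusted p = 0.352). The arrays of GC-1 and T3 did not overlap in 3 of the 33 genes, beside 18.0% of all probe sets.

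The wider pathway was read from 87 further genes, of which 72 were measured. Of these, 8 rose and 0 fell under T3, 7 rose and 0 fell under GC-1, and 8 rose and 0 fell for the mean of the ligands. Other settings called some lower. Under T3 there were 9 higher and 5 lower with the interquartile range as a covariate, and 10 and 2 without T3 replicates 1 and 2. Under GC-1 there were 9 higher and 2 lower with the trended and robust spread, 8 and 2 with array weights, and 8 and 2 without T3 replicate 3. For the mean of the ligands up to 4 were lower, with the covariate. The calls lay mostly among genes linked to ATF4 and amino acid limitation, with 6 of 35 under T3 and 6 of 35 under GC-1. Among all probe sets 4.00% and 1.81% were called higher. The list was drawn up with earlier results of these data known, so its share beside the background is a description and not a test. CEBPB, a C/EBP factor that pairs with ATF4 and also serves liver gluconeogenesis, rose by 0.81 ± 0.05 under T3 and 0.72 ± 0.05 under GC-1. NUPR1, a small stress-induced chromatin protein, rose by 0.68 ± 0.07 and 0.50 ± 0.07, and GDF15, a secreted stress cytokine, by 0.55 ± 0.08 and 0.52 ± 0.08. PCK2, the mitochondrial phosphoenolpyruvate carboxykinase, rose by 0.54 ± 0.05 and 0.36 ± 0.05. These 4 passed under both ligands in all 17 other settings. VEGFA, an angiogenic growth factor, rose by 0.44 ± 0.05 and 0.22 ± 0.05. SLC7A5, the light chain of a large neutral amino acid exchanger, rose under T3 (0.29 ± 0.05), and its GC-1 value of 0.19 ± 0.05 did not pass (adjusted p = 0.0681 by limma). VLDLR, a lipoprotein receptor, rose under GC-1 (0.29 ± 0.06), and its T3 value of 0.18 ± 0.06 did not pass (adjusted p = 0.114). The difference between the ligands did not pass for SLC7A5 or VLDLR (adjusted p = 0.355 and 0.437).

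**Figure D4:**
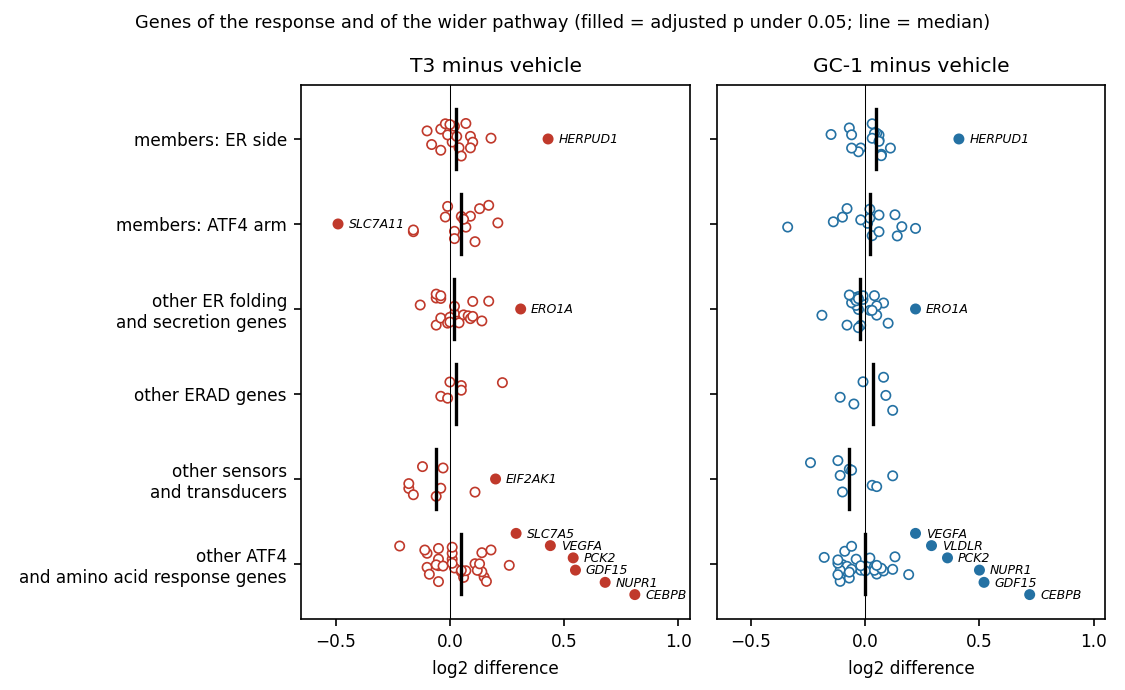
Horizontal axis: log2 difference from vehicle under T3 and under GC-1 for the 33 genes, split into ER side and ATF4 arm, and for the 72 further measured genes of the pathway in 4 lists; each point is 1 gene, filled where the adjusted p was under 0.05, vertical height within a row has no meaning, and black lines are medians. CEBPB lies farthest right at 0.81 and 0.72, while medians of all 6 rows stay between -0.07 and 0.05.

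On the rest of the ER side, 2 of 37 measured genes were called under T3 (5.41%) and 1 under GC-1 (2.70%), beside 5.50% and 2.80% of all probe sets. ERO1A, the oxidase that recharges protein disulfide isomerases, rose by 0.31 ± 0.05 under T3 and 0.22 ± 0.05 under GC-1 and was the one call among 22 other folding and secretion genes, whose medians were 0.02 and -0.02. Of 6 other degradation genes, 0 were called under either ligand, with 1 under T3 and 1 under GC-1 at an unadjusted p under 0.05 by limma. Of 9 other sensors and transducers, EIF2AK1, the haem-regulated kinase upstream of ATF4 translation, was called under T3 (0.20 ± 0.05, adjusted p = 0.0434) and 0 under GC-1. That T3 call held in 6 of 17 other settings. EIF2AK1 and SLC7A5 fall outside the rule for named genes and were chosen after their values were seen. Under GC-1 the calls of ERO1A, VEGFA and VLDLR held in 10, 9 and 11 of 17, and the count of 7 fell to 4 when vehicle replicate 1, vehicle replicate 3 or any 1 of the GC-1 arrays was left out, and to 5 for vehicle replicate 2.

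Array medians lay close together, from 7.015 to 7.056, while the interquartile ranges given above differed. The median SD of the 33 genes was 0.042 in vehicle, 0.082 in T3 and 0.059 in GC-1, beside 0.061, 0.086 and 0.064 for all probe sets. As a check of the labelled cell type, 9 of 10 hepatocyte markers were measured and averaged 11.61 (FGB) to 14.39 (ALB) in vehicle, at the top of the signal range. Of these 9 markers, 3 rose and 0 fell under T3: FGB (fibrinogen beta chain, 0.69), RBP4 (retinol-binding protein, 0.25) and APOB (apolipoprotein B, 0.21). Under GC-1 FGB rose (0.65), and the other 8 did not pass. Markers of other cell types lay lower, with 9 of 10 measured. In vehicle LUM averaged 3.44, CDH5 4.83, PTPRC 4.88, PECAM1 6.08, KRT5 6.65, MS4A1 6.68 and CD3E 7.07. COL1A1 at 9.19 and ACTA2 at 10.16 lay well above the array medians. Of these 9, 0 were called under either ligand by limma (2 and 1 at an unadjusted p under 0.05). The number of arrays limits the precision of every value here.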

How the data were processed

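The authors deposited 1 log2 signal per probe set and array. Per the submitters' processing notes the tool was RMA, with no version stated. The log base was inferred from the values (3.147 to 14.543). RMA combines the probes of a set and compresses dim signals, so differences of dim genes are likely understated. Scanner files were not analysed here, so detection of single probe sets was not examined.

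From the deposited log2 values, 62 control probe sets were left out. limma 3.58.1 in R 4.3.3 fitted group means over all 9 arrays, without a replicate block, with two-sided tests and Benjamini-Hochberg adjustment over 22215 probe sets, and was tested on simulated data. The 52 Entrez identifiers matched RefSeq and 0 symbols changed. Another 3 probe sets carry several symbols (HSP90B1 and PHGDH among them) and were not used. Of the 52, 6 end in _x_at, a type whose probes can match unrelated transcripts, and 21 in _s_at, whose probes can match several transcripts, HERPUD1 among them.

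The genes, lists, margins and alternatives were chosen with earlier results of these data known. Values in each array are given for genes with a called probe set and for the 2 genes of each group that had the lowest p for the mean of both ligands. Beyond that rule, array values of SDF2L1 and DDIT4 are given, chosen after they were seen. Of the further pathway genes, up to 6 called per comparison are named, by smallest p; SLC7A5 and EIF2AK1 are named beyond that rule. Alternatives changed the spread estimate, array weights, normalization, a filter on dim probe sets, the pairing, the groups fitted, and the arrays kept. Promoters were searched in 1 RefSeq window a gene.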

Additional observations from a re-analysis of the deposited data

How the results depend on the processing

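HERPUD1 was called under both ligands in all settings run. Of the called probe sets of the set under T3 (3), 7 were called with a trended and robust spread, 7 with the interquartile range as a covariate, 7 without T3 replicates 1 and 2, 1 with only the groups compared, 1 with the replicate block, and 1 to 4 leaving out single arrays. Under GC-1 (1) there were 2 with array weights, 2 with only the groups compared, 2 without T3 replicates 1 and 2, and 1 to 2 leaving out single arrays. The ligand mean (2) gave 4 with the trended and robust spread, 4 without dim probe sets, 6 with the covariate, 7 without T3 replicates 1 and 2, 1 with the replicate block, and 1 to 4 leaving out single arrays; it was not run with only the groups compared, which are all 3. GC-1 against T3 gave 0 in each setting.

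Of the further pathway genes, 8 under T3 became 14 with the covariate. Under GC-1, 7 became 11 with the trended and robust spread, 4 with the replicate block, and 4 to 10 leaving out single arrays. For the ligand mean, 8 became 14 with the covariate and 13 without T3 replicates 1 and 2. GC-1 against T3, at 0, gave 1 with the trended and robust spread (VEGFA, lower in GC-1). These settings were applied to these genes after seeing the data.

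The sign turned for EDEM1 under T3 (-0.04 with the covariate, -0.03 without T3 replicates 1 and 2) and for ATF3 under T3 (-0.12 and -0.11, and -0.02 to 0.19 leaving out single arrays). Of 430 values of the 12 named genes under other settings, 406 kept their sign and side of the threshold, 12 passed newly and 7 no longer passed, the latter all SLC7A11 under T3. The cause of these changes was not tested.

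Same-numbered arrays did not deviate together (correlations of -0.262 to 0.0755 between groups), so the replicate numbers were not taken to pair the samples. Differently numbered arrays gave correlations of -0.298 to 0.288, both extremes between T3 and GC-1, and their source was not tested. With 3 arrays a group, and dim genes such as FGF21 in the lower part of the signal range (percentile 24.2 of mean signal), small differences are not detectable.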
